A study of Mus musculus with 2 samples.

Results

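The YAP and TEAD genes examined here are 10 genes of the Hippo pathway: the coactivators Yap1 and Wwtr1, the DNA-binding partners Tead1 and Tead2, the inhibitors Lats2 and Amotl2, and the target genes Ankrd1, Axl, Ccn1 (Cyr61) and Ccn2 (Ctgf). They were chosen by name, and every probe set that names one of them alone was used, which gave 24 of the 34945 probe sets that name a single gene, for 10 of 18193 genes. The day 15 array held RNA from PGK12.1, a line of female mouse embryonic stem cells (ES cells), differentiated for 15 days as embryoid bodies. The undifferentiated array held RNA of that line at day 0. Both came from passages 14 to 18 of cells derived from blastocysts of a 129 female and a (129 X PGK)F1 male. The stem cells had been kept with leukemia inhibitory factor on fibroblast feeders, which were depleted on gelatin before culture for the experiment, and feeder cells that stayed behind would be part of either sample. The line was a single one, and the study itself asked about X-linked expression as the cells lose an active X.

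YAP (gene Yap1) and TAZ (gene Wwtr1) are coactivators that cannot bind DNA themselves and work through the TEAD transcription factors. The Hippo kinases, MST and then LATS, phosphorylate both coactivators, which keeps them in the cytoplasm or sends them to degradation, so the activity of the pathway is set largely on the protein and not on the RNA. Stiff matrix, cell spreading and low cell density are known to bring YAP and TAZ into the nucleus, where they turn on genes such as Ccn1, Ccn2 and Ankrd1, and also Lats2 and Amotl2, which feed back as inhibitors. The arrays measured RNA alone and carry no information on phosphorylation or location of the proteins.

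There was 1 array per condition, so no difference below has a replicate error, a test or a p-value, and the number of arrays limits the precision. Differences are given as log2(signal + 16) at day 15 minus that in undifferentiated cells, and a gene was called at a size of 1, which is 2-fold. Folds are ratios of the deposited signals. Where the dimmer signal lay below 35.6, the highest value of 15 bacterial control probe sets without target, the fold is a lower bound against that value, and no fold is given for a gene below it on both arrays. Of the 11960 genes whose mean log2 signal over both arrays reached the median of all probe sets, 1975 (16.5%) were called higher at day 15 and 1006 (8.41%) were called lower. The median difference over all of them was 0.00052. Probe sets of the same gene differed from each other with an SD of 0.53 on this log2 scale, and this spread includes no variation between cultures. The labelled cell state was visible only in part in the stem cell markers Pou5f1, Nanog, Sox2 and Zfp42. Their signals were 2555 to 3729 at day 15 and 5470 to 7838 in undifferentiated cells. Pou5f1 (log2 difference -1.41) and Zfp42 (-1.12) were called lower, while Nanog (-0.94) and Sox2 (-0.72) fell short of the call. All of these markers thus kept strong signal at day 15. Since each array measured a mixed population, more cells of a type and more RNA per cell cannot be told apart.

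All 4 target genes passed 2-fold with higher signal at day 15, while the regulators were split between genes that differed little and genes between 2- and 4-fold higher. The 4 targets had a median log2 difference of 4.36, and the regulators Yap1, Wwtr1, Tead1 and Tead2 had one of 0.85. The difference between these medians was 3.50. The lowest target, Ccn2 at 2.61, lay above the highest regulator, Wwtr1 at 1.80, so the values of the groups did not overlap. This leaves the feedback inhibitors Lats2 and Amotl2 out of both groups: among the regulators, Lats2 at 3.55 would lie above Ccn2, and among the targets, Amotl2 at 0.83 would lie below Wwtr1. The difference between the medians was 3.33 with both counted as regulators and 2.91 with both counted as targets. All 10 members passed the expression filter, 7 of them were called higher at day 15 and 0 were called lower, against 16.5% and 8.41% of all genes above the filter. Each of the 4 targets was also more than 4-fold higher, as were 6.54% of all genes. Ankrd1 and the probe set that stands for Lats2 were below the filter level (a signal of 36.5) in undifferentiated cells and passed it through their day 15 signal, so these 2 could be counted only because they were higher there. Of the 24 probe sets, 14 passed 2-fold with higher signal at day 15 and 0 with lower signal, against 12.2% and 6.67% of all probe sets that name a single gene. No filter was applied to these shares, while 21 of the 24 passed it. The 14 belong to the same 7 genes, with 4 from Ccn1 and 3 from Wwtr1, so they add no further gene.

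**Figure D1:**
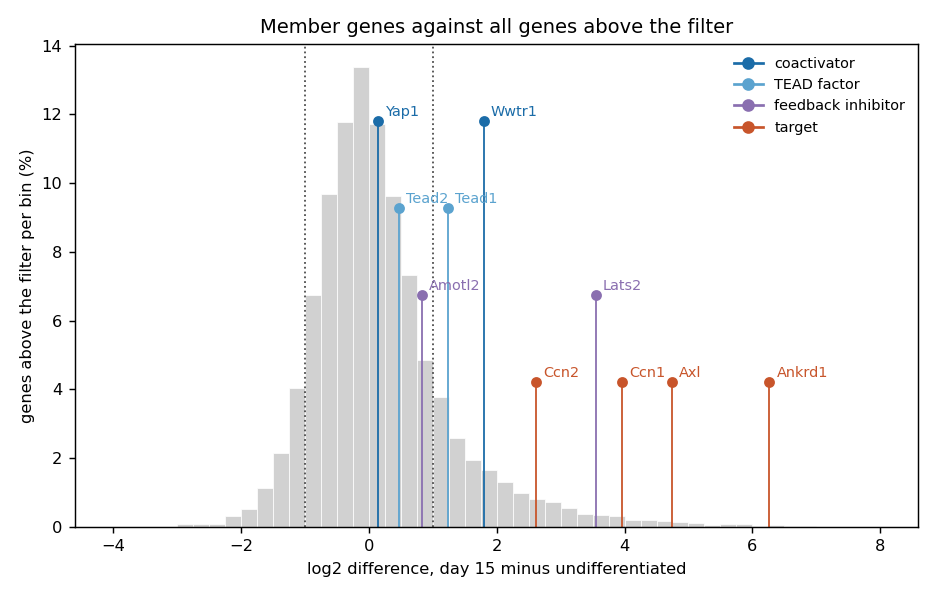
The grey histogram gives the percentage of the 11960 genes above the filter in each bin of the log2 difference (day 15 minus undifferentiated), and each stem marks a member gene, coloured by its role and placed at a height that only separates the roles. The 4 targets lie between 2.61 and 6.27, to the right of all 4 regulators, and the dotted lines mark 2-fold in either direction.

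Of the coactivators, Yap1 was nearly level between the arrays and Wwtr1 was higher at day 15. The brighter Yap1 probe set read 1516 at day 15 and 1367 in undifferentiated cells (1.11-fold higher at day 15), and the dimmer one read 145.8 and 113.6 (1.28-fold). The log2 difference of Yap1 was 0.15, and 42.6% of all genes above the filter had a higher one. Yap1 was thus already well above the bacterial controls in the stem cells and stayed so.

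Wwtr1, which encodes TAZ, was higher at day 15 in all 3 of its probe sets. They read 1198, 273.8 and 160.3 at day 15, against 333.4, 78.5 and 49.8 in undifferentiated cells. The folds were 3.59, 3.49 and 3.22, and the log2 difference of the brightest was 1.80, which 7.93% of all genes exceeded. The log2 differences of the 3 Wwtr1 probe sets (1.42 to 1.80) were all above those of the 2 Yap1 probe sets (0.15 and 0.32). Between these paralogs, the larger difference therefore belonged to Wwtr1 in every pairing of their probe sets.

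The TEAD factors, which carry the DNA-binding TEA domain, were higher at day 15 by smaller amounts. For Tead2 the amount was below the SD of 0.53 between probe sets of the same gene. The brighter Tead1 probe set read 1860.4 at day 15 and 783.3 in undifferentiated cells (2.38-fold), and the other read 174.1 and 114.1 (1.53-fold). Only the brighter of these passed 2-fold, and the mean over both Tead1 probe sets gave a log2 difference of 0.89, short of the call. Tead2, the TEAD gene known for early embryonic expression, had a single probe set at 583.2 and 416.0 (1.40-fold, log2 difference 0.47). Both TEAD transcripts were therefore above the bacterial controls on both arrays, and neither gene had a probe set that was lower at day 15.

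The other TEAD genes and the VGLL genes, whose proteins bind TEAD in place of YAP, moved in different directions. Of 5 that passed the filter, 2 were called higher at day 15 and 1 lower (median 0.27), against 16.5% and 8.41% of all genes above the filter. Vgll3 stood out within this group at 1935 at day 15 and 153.7 in undifferentiated cells (12.6-fold higher), and its other probe sets read 1521 and 116.1, and 519.2 and 9.4. Vgll2 was 3.16-fold higher (176.9 and 55.9). Vgll4 read 34.9 at day 15 and 93.1 in undifferentiated cells, at least 2.62-fold lower, and Tead4, known for its role in the trophectoderm, read 28.0 and 60.3, at least 1.69-fold lower and short of the 2-fold call. Tead3 was at 130.8 and 105.6. Vgll1 lay below the filter with 31.5 and 4.9.

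The pair of feedback inhibitors was less clear, because the probe sets of Lats2 gave unlike values. Lats2 encodes a LATS kinase that phosphorylates YAP and TAZ. Its nominal value came from a probe set of the kind whose probes may also match other transcripts (suffix x), which read 587.5 at day 15 and 35.5 in undifferentiated cells (at least 16.5-fold higher, log2 difference 3.55). The next brightest, with a mean log2 signal of 7.45 against 7.46, read 198.0 and 127.2, only 1.56-fold higher (log2 difference 0.58).

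The other Lats2 probe sets were spread between these values or too dim to judge. Among them, 1 read 193.1 at day 15 and 11.8 in undifferentiated cells (at least 5.42-fold higher), and another read 80.9 and 35.2 (at least 2.27-fold, but below the call on the log2 scale). The remaining ones read 33.8 and 18.3, and 2.6 and 9.6, below the bacterial controls on both arrays. All 4 Lats2 probe sets that passed the filter were thus higher at day 15 and 2 were called at 2-fold on the log2 scale, so the size of the Lats2 difference was not settled. Another probe set that names Lats2 together with Xpo4 was not used for gene values, and it read 68.9 and 71.4.

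Amotl2 encodes an angiomotin family protein that holds YAP at cell junctions and in the cytoplasm. Its single probe set read 1401 at day 15 and 782.2 in undifferentiated cells, 1.79-fold higher (log2 difference 0.83), which falls short of 2-fold.

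**Figure D2:**
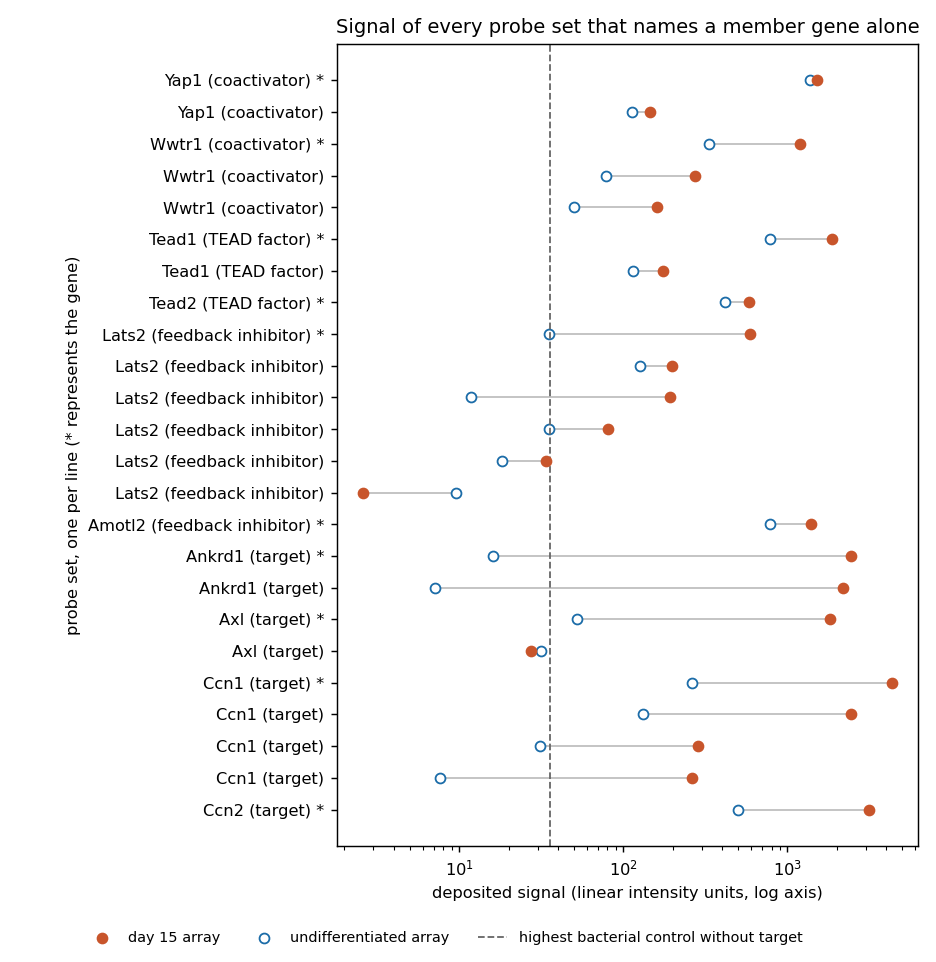
Deposited signal (log axis) of each of the 24 probe sets, with filled points for the day 15 array and open points for the undifferentiated array, and the dashed line at the bacterial control bound of 35.6. The 2 Ankrd1 probe sets and all 4 of Ccn1 show long gaps, those of Yap1 almost none, and the 6 of Lats2 range from a long gap to a reversed one among the dimmest.

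The target genes were all well above 2-fold, and Ankrd1 and Ccn1, with more than 1 informative probe set, were so in each of them. Ankrd1 encodes a nuclear and sarcomeric ankyrin repeat protein of muscle and stretched cells. Its probe sets read 2456 and 2180.5 at day 15, against 16.1 and 7.1 in undifferentiated cells, where both were below the bacterial controls. The gains were at least 69.0-fold and at least 61.25-fold. Since the stem cell signal was not above the controls, the log2 difference of Ankrd1 (6.27) depends on the pseudocount, and was 7.17 with a pseudocount of 1 and 4.98 with 64.

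Axl, a receptor tyrosine kinase of the TAM family, read 1819 at day 15 and 52.5 in undifferentiated cells (34.7-fold higher, log2 difference 4.74), and 69 genes had a larger one. Its second probe set, also of suffix x, read 27.3 and 31.6, below the bacterial controls on both arrays, so Axl rests on a single informative probe set.

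Ccn1 and Ccn2 encode secreted matrix-associated proteins of the CCN family and are widely used readouts of YAP activity. The 4 Ccn1 probe sets read 4339, 2440.2, 287.1 and 262.5 at day 15, against 262.6, 131.7, 31.1 and 7.6 in undifferentiated cells. The brightest, of suffix x, gave 16.5-fold (log2 difference 3.97) and the others 18.5-fold, at least 8.06-fold and at least 7.37-fold. The last of these is the only one without a suffix (log2 difference 3.56). Ccn2 read 3132 at day 15 and 498.8 in undifferentiated cells (6.28-fold, log2 difference 2.61). By their brightest probe sets, both genes were above the bacterial controls in the stem cells already, unlike Ankrd1. The Ccn1 probe sets at 31.1 and 7.6 were below them there. The difference of Ccn2 was exceeded by 3.89% of all genes and that of Ccn1 by 1.15%.

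TEAD proteins bind the hexamer GGAATG, which reads CATTCC on the other strand. The RefSeq promoter table (build GRCm38.p6) holds 8 of the 10 members and lacks Tead1 and Ccn2, and the 250 bases before each annotated start were searched on both strands. The hexamer was present for 6 of the 8, namely Ankrd1, Axl, Ccn1, Amotl2, Yap1 and Wwtr1, and was not found for Tead2 or in either window of Lats2. Of all 32851 such windows a share of 12.6% holds it, as do 14.4% of 27025 genes. Ankrd1 had 2 hexamers, which start 210 and 123 bases before the annotated start, and the other genes had 1 each. The windows of the 3 targets are shown whole, since these genes had the 3 largest differences among the members, 5′ to 3′ on the strand of the gene (minus for all 3), with the hexamers in capitals. They lie at chr19:36119845-36120094 for Ankrd1, chr7:25788734-25788983 for Axl and chr3:145649986-145650235 for Ccn1.
Ankrd1: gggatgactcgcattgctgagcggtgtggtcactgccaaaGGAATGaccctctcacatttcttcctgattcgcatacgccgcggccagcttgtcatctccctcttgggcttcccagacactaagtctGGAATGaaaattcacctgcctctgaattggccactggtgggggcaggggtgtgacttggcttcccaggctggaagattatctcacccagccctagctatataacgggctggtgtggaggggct
Axl: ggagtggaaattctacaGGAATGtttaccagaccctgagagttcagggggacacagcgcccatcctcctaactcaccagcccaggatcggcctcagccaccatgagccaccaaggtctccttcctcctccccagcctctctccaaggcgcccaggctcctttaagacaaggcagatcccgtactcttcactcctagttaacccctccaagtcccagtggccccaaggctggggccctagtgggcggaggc
Ccn1: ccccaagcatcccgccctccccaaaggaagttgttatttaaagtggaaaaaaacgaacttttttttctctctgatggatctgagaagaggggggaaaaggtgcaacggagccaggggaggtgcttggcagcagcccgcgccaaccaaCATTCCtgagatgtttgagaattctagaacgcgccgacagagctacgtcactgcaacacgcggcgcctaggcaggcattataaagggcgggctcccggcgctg

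The hexamer did not separate the genes by the size of their difference, because Amotl2, Yap1 and Wwtr1 hold it too and differed less than the targets. Their sites are shown with 12 bases on either side, 5′ to 3′ on the strand of the gene and with the hexamer in capitals. They start 65 bases before the annotated start of Amotl2 (chr9:102717727-102717756, plus strand), 141 before that of Yap1 (chr9:8004720-8004749, minus strand), and 136 or 170 before the 2 annotated starts of Wwtr1 (chr3:57576029-57576058, minus strand).
Amotl2: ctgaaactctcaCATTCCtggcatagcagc
Yap1: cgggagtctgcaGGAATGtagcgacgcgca
Wwtr1: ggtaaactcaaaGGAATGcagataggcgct
Motifs of factors that often act beside TEAD were also counted in these windows. The AP-1 site TGANTCA was present for 7.82% of all genes (6.75% of windows). The CArG box of serum response factor was present for 1.62% of all genes (1.47% of windows). Each occurred in 0 of the 8 member genes, which at such low shares does not set the members apart from all genes. A match of letters is not evidence of binding, and its absence speaks only of these 250 bases.

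A wider set of YAP and TAZ target genes was also mostly higher at day 15. These were the 16 genes of a 22-gene signature drawn from human tumours that are not among the members. Of 15 that passed the filter, 11 were called higher and 0 lower (16.5% and 8.41% of all genes). Of the 11, 4 (Crim1, Ccdc80, Tgfb2 and Rbms3) were below the filter level in undifferentiated cells and could be counted only because they were higher at day 15, as could 546 of the 1975 genes called higher in all. The list had a median log2 difference of 2.0 against 0.00052 over all genes. The count of 11 was 7 with the mean over the probe sets of a gene and 5 when the filter was raised to the 75th percentile. Rbms3, an RNA-binding protein gene, read 1609.7 at day 15 and 14.9 in undifferentiated cells (at least 45.2-fold higher, log2 difference 5.72). Its dimmer probe sets gave smaller log2 differences of 3.42 to 4.76, and the one at 3.42 read 670.8 and 48.0. The TGF-beta ligand gene Tgfb2 read 517.5 and 26.2 (at least 14.5-fold). Crim1, a transmembrane regulator of BMP signalling, read 329.2 and 15.0 (at least 9.25-fold), and the IGF-binding protein gene Igfbp3 read 2581 and 232.9 (11.1-fold). The 4 genes within 2-fold were Gadd45a, Nt5e, Dock5 and Nuak2, with log2 differences of -0.44 to 0.43. Foxf2, at 34.3 and 10.7, did not pass the filter.

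The kinase core of the Hippo pathway differed less than the targets. Of 9 genes that passed the filter, 4 were called higher at day 15 and 0 lower (median 0.49), against 16.5% and 8.41% of all genes. The count of 4 was 2 with scaling on the hybridization controls. Stk3 had no probe set that names it here. Lats1, the paralog of Lats2, read 848.9 at day 15 and 218.9 in undifferentiated cells (3.88-fold), and a dimmer probe set gave a log2 difference of 0.45. Taok3, a kinase that acts on MST, was 3.20-fold higher (148.5 and 46.4), the MST scaffold gene Sav1 2.22-fold (1312 and 590.5) and the LATS cofactor gene Mob1b 2.24-fold (630.9 and 281.8). Dimmer probe sets above the filter gave log2 differences of 0.60 for Sav1 and 0.13 for Mob1b. Mob1a was not called (0.34), though a dimmer probe set gave 2.81. Taok2 was 2.19-fold lower by signal (76.9 and 168.5, log2 difference -0.99), short of the call. Stk4, which encodes MST1, read 1333 and 1636.5.

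Upstream regulators were divided. Of 12 genes that passed the filter, 7 were called higher at day 15 and 1 lower (median 1.30), against 16.5% and 8.41% of all genes, and 2 of the 7, Fat4 and Dchs1, passed the filter only through their day 15 signal. The protocadherin gene Fat4 read 273.8 at day 15 and 7.9 in undifferentiated cells (at least 7.69-fold higher), and Dchs1, which encodes its ligand, was at least 2.91-fold higher (103.7 and 9.0). The FERM domain gene Frmd6 read 1162 and 170.9 (6.80-fold) and Amotl1, an angiomotin gene and paralog of Amotl2, read 706.0 and 128.6 (5.49-fold). Amot itself was at 620.9 and 191.1 (3.25-fold), though a dimmer probe set above the filter had a log2 difference of -0.36. In the other direction, Nf2, the gene of the tumour suppressor merlin, read 544.3 and 1023 (1.88-fold lower, log2 difference -0.89, short of the call). The Nf2 probe sets above the filter ranged from -1.95 to -0.13, so the size of this difference was not settled. Ajuba, a LIM protein gene that restrains LATS, read 1971 and 4718.5 (2.39-fold lower). Amot, Nf2, Ajuba, Stk4, Mob1a, Taok2, Gadd45a, Nt5e, Dock5, Nuak2, Foxf2 and Ccdc80 are named here after their values were seen, the others by the size of their difference.

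Close relatives of the targets did not share their gains as families. Among the other CCN genes, Ccn4 (Wisp1) read 2671 at day 15 and 22.2 in undifferentiated cells (at least 75-fold higher), while Ccn3 read 57.5 and 25.6, Ccn5 read 58.7 and 56.6, and Ccn6 stayed below the bacterial controls at 22.3 and 13.4. Of the TAM receptors beside Axl, Tyro3 was 2.05-fold lower by signal (130.7 and 267.9, log2 difference -0.95) and Mertk was at 71.8 and 48.6. The gene of the AXL ligand, Gas6, read 1399.9 at day 15 and 104.6 in undifferentiated cells (13.4-fold higher), so receptor and ligand transcripts were both higher in this pair of arrays, and Pros1, which encodes the other TAM ligand, was level at 218.8 and 226.5. The muscle ankyrin repeat relatives of Ankrd1 did not follow it: Ankrd23 read 41.3 and 35.3 and Ankrd2 7.6 and 20.6.

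**Figure D3:**
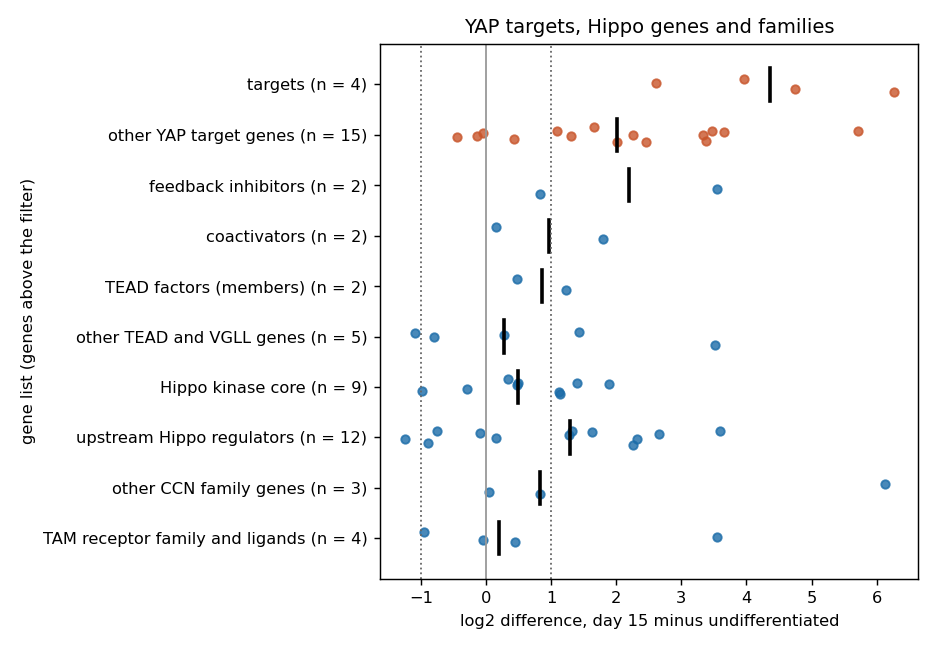
Each point is a gene above the filter, placed by its log2 difference (day 15 minus undifferentiated), and black bars are list medians. The members' targets (median 4.36) and the other YAP target genes (median 2.0) lie to the right of the kinase core (median 0.49), and the grey line marks the median of all genes.

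Some markers of several cell types were also higher at day 15. For each list below, the shares over all genes above the filter are 16.5% called higher and 8.41% called lower. Of 8 fibroblast and feeder markers, 7 were called higher at day 15, and the summed signal of the list was 31791 at day 15 and 359.3 in undifferentiated cells. Of 3 smooth muscle markers above the filter, all were called higher, with summed signals over 4 genes of 18027 and 740.9. Myh11, also of that list, lay below the filter at 26.3 and 19.1. Of 6 cardiac markers 2 were (2023 and 294.8), of 3 visceral endoderm markers above the filter 2 (1592.5 and 43.9 over 4 genes), and of 4 trophoblast markers 3 (452.7 and 142.8). Of 3 endothelial markers above the filter 0 were called higher and 1 was called lower (332.1 and 403.7 over 4 genes), and Kdr, at 105.4 and 50.8, was 2.07-fold higher by signal but short of the call. Of the markers called higher, some were below the filter level in undifferentiated cells and could be counted only because they were higher at day 15. These were 4 of 7 fibroblast, 1 of 3 smooth muscle, 1 of 2 cardiac, 2 of 2 visceral endoderm and 2 of 3 trophoblast markers. The same held for 546 of the 1975 genes called higher in all. No marker was at a signal of 0 on either array, but in undifferentiated cells 4 of the 8 fibroblast markers were below the bacterial control bound. The part of these cell types in the differences of Ankrd1, Axl, Ccn1 and Ccn2 was not tested.

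The targets also lay above the regulators under the 8 other processing settings, which describes these 2 arrays only, since the members were chosen with earlier results known. The lowest target was above the highest regulator by 0.69 to 0.95 on the log2 scale, and all 4 targets passed 2-fold in each. This gap stayed at 0.82 without a filter, with the 75th percentile filter and without suffixed probe sets. The Ccn2 and Wwtr1 probe sets that set it were the same there. Scaling on the hybridization controls changes all signals of an array by the same factor, so it hardly moved the gap (0.81). These settings were therefore no check on the gap. Scaling the arrays on their hybridization controls, which moves the median of all genes by -0.36, turned the log2 difference of Yap1 to -0.24, or 0.12 relative to that median. It also took Tead1 below 2-fold (0.84, or 1.20 relative to the median) and Tead2 to 0.09, or 0.45 relative to the median. Of the targets, Axl had the largest change, with a log2 difference of 2.30 when its dim second probe set was averaged in.

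**Figure D4:**
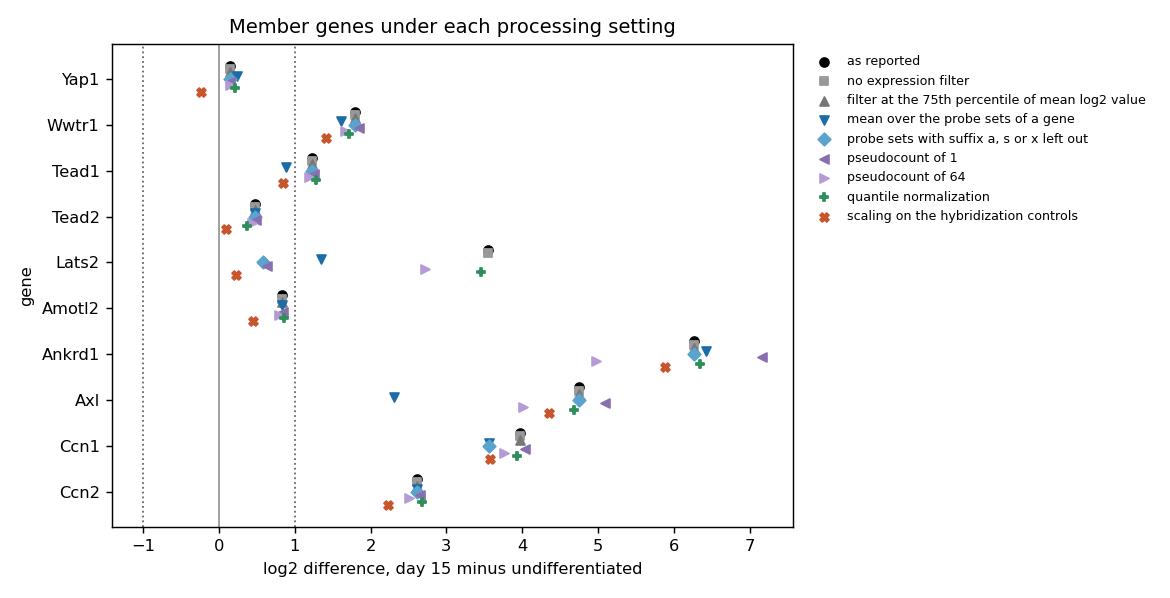
Log2 difference (day 15 minus undifferentiated) of each member gene as reported and under 8 other processing settings, 1 symbol per setting. Lats2 ranges from 0.22 to 3.55 and crosses the 2-fold line, while Ankrd1, Axl, Ccn1, Ccn2 and Wwtr1 stay above 1 in each setting.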

How the data were processed

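Total RNA was labelled and hybridised to Affymetrix arrays, per the labels' protocols. The deposited values are linear signal intensity per probe set, 45101 in all, made with software not given in the sources used here. Trimmed by 2% at either end, the signals of each array had a mean of 250.0, which shows that the authors scaled the intensity before deposit. The 64 control probe sets were set aside. Of the other 45037, 34945 name 1 gene in the platform annotation, 932 name several and 9160 are not listed there. Symbols were updated through the RefSeq gene table (GRCm38.p6), by gene identifier for 34741 and by symbol for 143. A gene was represented by its probe set with the highest mean log2(signal + 16), and the pseudocount of 16 understates the differences of dim genes. With 1 array per group no test was run. All 10 members were named with every probe set, and of each other pathway or family list up to 4 genes above the filter with the largest difference (lists of up to 6 in full). Marker lists are given as counts and sums, and single genes of them were named after their values were seen. The members and the 18 gene lists were chosen with earlier results of these data known, and the bacterial control bound was set with the signals in view. Python 3.11.15, pandas 2.3.3 and numpy 2.4.6 were used.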

Additional observations from a re-analysis of the deposited data

How the results depend on the processing

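With 1 array per condition no value has an error, and signals near the bacterial controls set only bounds. The alternatives were no filter, the 75th percentile as filter, averaging the probe sets of a gene, leaving out suffixed probe sets (a, s or x, which removes Amotl2), pseudocounts of 1 and 64, quantile normalization and scaling on the hybridization controls. No paired analysis was possible because each condition has a single array. Of the members and the list counts and medians, the results run here, none that passed 2-fold reversed. The 7 members at least 2-fold higher became 5 with the control scaling. With the mean over probe sets the targets' median was 3.09, the targets minus regulators 2.41, and the other YAP target genes at least 2-fold higher 7. That last count was 5 with the filter at the 75th percentile, where fewer genes are counted. Counting Lats2 and Amotl2 as targets gave a target minus regulator difference of 2.91. The Hippo kinase core genes at least 2-fold higher were 2 with the control scaling. The feedback inhibitors' median, 2.19 as reported, was 0.83 with the filter at the 75th percentile, which removes Lats2. It was 1.08 with the mean over probe sets, 0.58 without suffixed probe sets, 0.74 with a pseudocount of 1 and 0.33 with the control scaling, and in the last 3 of these settings the less different Lats2 probe set represents the gene. The genes past 2-fold in either direction were higher at day 15 in 66.3% as reported, 54.6% after quantile normalization (median shift -0.13) and 37.7% with the control scaling.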

Other observations

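The TEAD hexamer was also counted in the 250 bases before the annotated starts of the other pathway genes, as a description of the sequence. Of 10 other YAP target genes with a promoter in the table, 2 held it (Crim1 and Ptpn14). Of 5 other TEAD and VGLL genes, 4 did (Tead3, Vgll1, Vgll3 and Vgll4), and these 4 differed in direction at day 15, with Vgll3 at a log2 difference of 3.52 and Vgll4 at -1.10. Of 8 genes of the kinase core 2 held it (Mob1a and Sav1), and of 10 upstream regulators 3 (Ajuba, Fat1 and Wwc2). Among them, Ajuba was lower at day 15, and Wwc2 was 2.50-fold higher by its brightest probe set. Its dimmer probe sets above the filter were short of the call, at log2 differences of 0.54 to 0.92. Of the TAM receptors and ligands beside Axl 0 of 4 held the hexamer. Over all genes in the table the share was 14.4%.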
